A study of Homo sapiens with 10 samples.

Results

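The integrin and laminin genes were examined in a list of accessible chromatin from MDA-MB-231, an established cell line from a triple-negative breast carcinoma. ATAC-seq marks open chromatin by the sites where Tn5 transposase inserts adapters, and it was run on 5 control libraries and on 5 libraries of ARID1A knockout cells, both in the same parental line. ARID1A belongs to SWI/SNF, a complex that moves nucleosomes, and the design asks how its loss changes accessibility. The labels do not say whether the knockout cells were 1 clone or a pool, or whether replicates came from separate cultures. The list analysed here has 161934 peaks for the whole series, with positions in hg38 and 0 columns per library. It gives no peak height and no depth. Knockout and control therefore could not be compared, and what follows is where peaks lie, without replicate error.

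The members are 37 genes of the integrin and laminin families, taken by name from these families. The choice of members and groups was made with earlier results of these data known. The members account for 328 of the 161934 peaks, which are the rows whose nearest annotated transcript belongs to a member. By role they fall into 5 integrins that bind laminin or are typical of epithelia, 14 other integrins that bind matrix proteins, 7 integrins of leukocytes, and 11 laminin chains. The subunits ITGA4 and ITGA2B, which occur on lymphocytes and platelets, were placed with the matrix-binding group.

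Integrins are cell-surface receptors made of an alpha and a beta subunit, which link the extracellular matrix or other cells to the actin or keratin cytoskeleton. Laminins are secreted trimers of an alpha, a beta and a gamma chain and form the sheet of the basement membrane on which epithelial cells rest. In breast epithelium, laminins anchor cells through integrins of the basal surface, and carcinoma cells use the same receptors to attach and migrate.

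A gene was said to have a start peak where a peak lay within 1000 bases of its outermost 5' boundary in RefSeq. Start peaks were found at 29 of 37 members (78.4%, exact 95% interval 61.8 to 90.2). Among all protein-coding genes the share was 71.5%, which lies inside that interval, so the members' share is near the background. The share was 12 of 14 for matrix-binding integrins (85.7%), 9 of 11 for laminin chains (81.8%), 4 of 5 for epithelial integrins (80%) and 4 of 7 for leukocyte integrins (57.1%, interval 18.4 to 90.1). These intervals overlap widely. With a window of 500 bases the members' share was 73.0% against 67.9% of protein-coding genes. Counting only peaks of at least 539 bases, the median of the list, it was 64.9% against 66.0%. The intervals cover only the counting of genes, which share sequence and are not replicates. No test between groups was made. The members without a start peak were ITGB6, ITGA2B, ITGA11, ITGAD, ITGAE, ITGAL, LAMA2 and LAMB4.

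**Figure D1:**
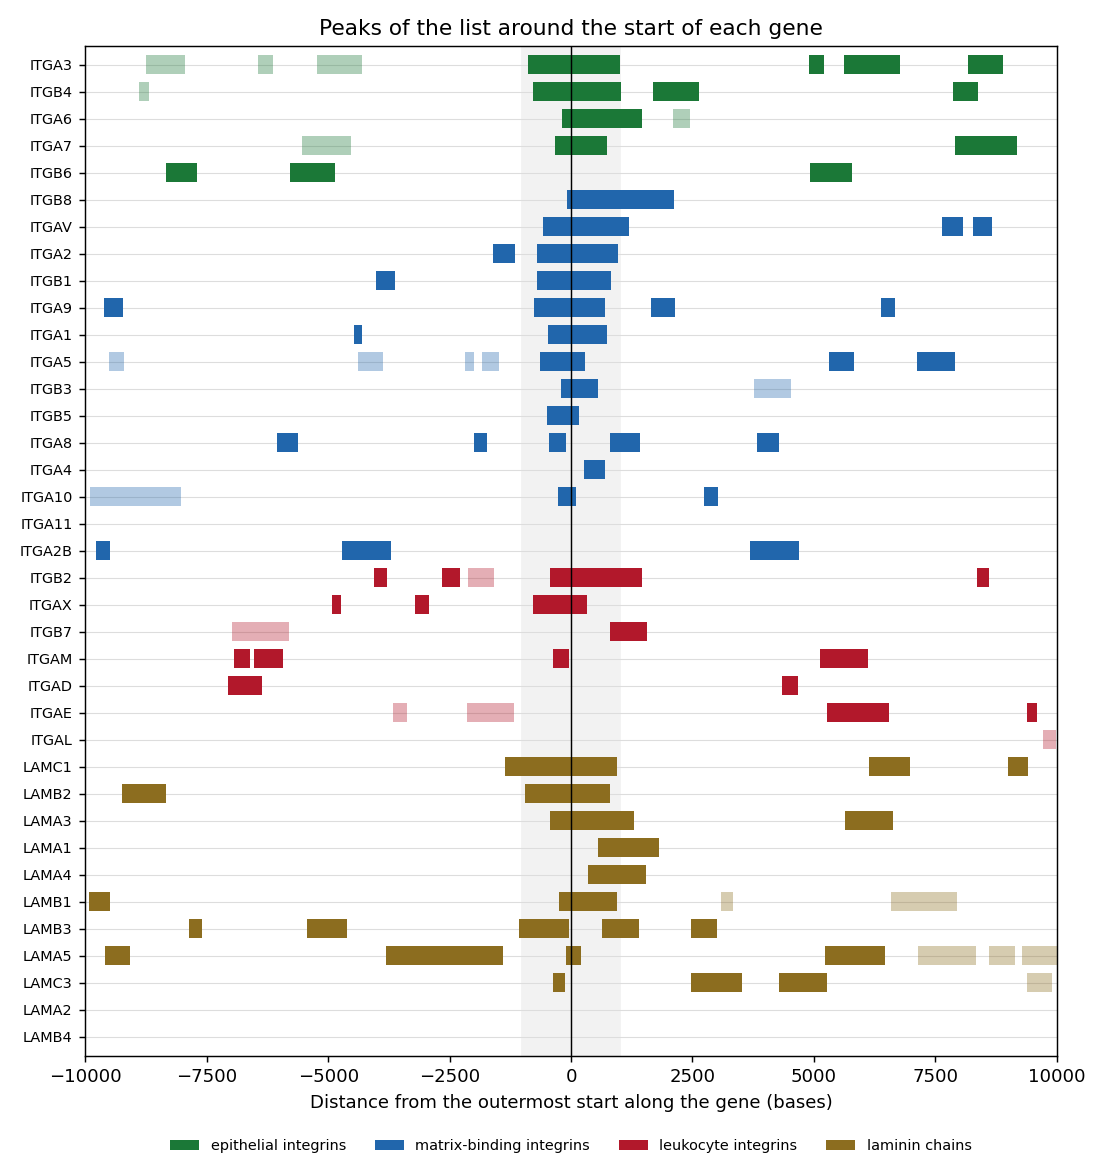
Peaks of the list within 10000 bases of the outermost start of each of the 37 genes, drawn along the direction of transcription (horizontal axis, distance in bases). Each bar is 1 peak, solid where its nearest transcript is the gene's own and pale where the list ties it to another gene; the grey band marks 1000 bases on either side of the start. Of the 29 genes with a start peak, 21 have a peak over the start itself, and ITGA11, LAMA2 and LAMB4 have no peak anywhere in the window.

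At 21 members a peak covered the start itself and at 8 the nearest peak lay beside it. The longest start peak had a median of 1214 bases over the 29 members (264 to 2297), against 1255 bases over all protein-coding genes with a start peak. It reached 1000 bases at 19 members and exceeded 1500 at 11. Length here is only the extent of the called peak, not its height.

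**Figure D2:**
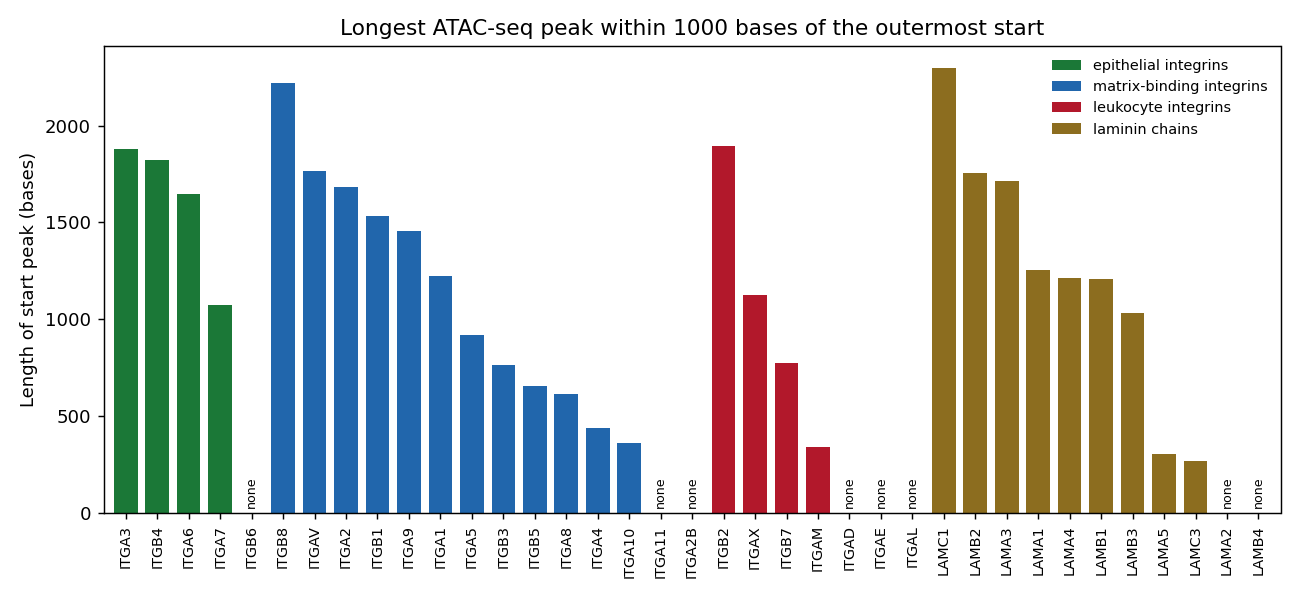
Length in bases of the longest peak within 1000 bases of the outermost start (vertical axis) for each gene, coloured by group; genes marked none have no such peak. LAMC1 (2297 bases) and ITGB8 (2219 bases) lead, and each of the 4 groups holds at least 1 gene above 1500 bases and 1 gene without a start peak.

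Among the epithelial integrins, ITGA3, ITGB4 and ITGA6 carried long peaks over their starts. ITGA3 encodes the alpha3 subunit, a laminin receptor of epithelial cells (ENSG00000005884, chromosome 17, 50056110 to 50090481, plus strand). Its start peak ran over 1877 bases, from 50055232 to 50057108. ITGB4 encodes the beta4 subunit, which pairs with alpha6 and ties laminin to keratin filaments in hemidesmosomes (ENSG00000132470, chromosome 17, 75721459 to 75757818, plus strand). Its start peak measured 1823 bases, from 75720666 to 75722488. ITGA6, the alpha6 partner of both beta4 and beta1 (ENSG00000091409, chromosome 2, 172427336 to 172506459, plus strand), had 1647 bases from 172427147 to 172428793. ITGA7, the laminin receptor known mainly from muscle, had 1073 bases at its start. That start lies beside the gene BLOC1S1, so the list alone does not assign the peak to either gene.

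ITGB6 was the member of this group without a start peak. Its product, beta6, pairs with alphaV on epithelial cells and binds the latent form of TGF-beta. The gene (ENSG00000115221, chromosome 2, 160099671 to 160200272, minus strand) had its nearest peak 4871 bases upstream. Inside the gene lay 7 peaks, and 7 more rows tied to it lay upstream, where the list places them in exons or introns of another transcript. Inside, the nearest peak to the start lay 4922 bases in. No other annotated start of ITGB6 had a peak within 1000 bases.

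The sequence before the start differed between ITGA6 and ITGB6. Both are shown as the 250 bases upstream of the RefSeq start, 5' to 3' on the gene's strand (GRCh38.p14), because they are the epithelial pair with and without a start peak that the reference table holds; ITGA3 is not printed here. Capitals mark matches to 7 short motifs searched on both strands: TGAGTCA (AP-1), GGAATG (TEAD), GGGCGG (SP and KLF), CCGGAAG (ETS), GAGGAAGT (PU.1), TGTGGT (RUNX) and TATAAA (the box bound by TBP). The ETS and PU.1 strings share the letters GGAAG but cannot match at the same place. The ITGA6 stretch lies at chr2:172427086-172427335 on the plus strand and the ITGB6 stretch at chr2:160200273-160200522 on the minus strand.
ITGA6: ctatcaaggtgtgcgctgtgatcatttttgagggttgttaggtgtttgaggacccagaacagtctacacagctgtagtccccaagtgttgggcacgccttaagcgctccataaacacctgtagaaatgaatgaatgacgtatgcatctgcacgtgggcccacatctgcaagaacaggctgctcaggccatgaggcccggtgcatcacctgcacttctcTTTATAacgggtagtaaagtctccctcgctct
ITGB6: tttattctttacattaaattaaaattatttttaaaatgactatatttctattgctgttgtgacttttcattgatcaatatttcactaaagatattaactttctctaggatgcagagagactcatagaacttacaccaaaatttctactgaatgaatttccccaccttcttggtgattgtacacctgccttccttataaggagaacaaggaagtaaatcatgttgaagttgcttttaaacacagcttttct
The ITGB6 stretch has 0 CpG pairs. That of ITGA6 has 50.8% G and C and 8 CpG pairs, and its match is the TATA string, on the reverse strand.

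The median epithelial integrin held 9 peaks in its body and 1.52 per 10000 bases of gene. The other groups had medians of 1.07 (matrix-binding), 0.991 (leukocyte) and 1.01 (laminins), and the median protein-coding gene 0.902. Pooled over total gene length, the values were 1.42 (epithelial), 1.02 (matrix-binding), 1.24 (leukocyte) and 0.766 (laminins), against 0.702 for all protein-coding genes. The order of the groups thus depends on the measure. Median gene lengths were 36.4, 88.4, 42.9 and 118.7 kb in the same order of groups. These differences were not tested. ITGA3 was the densest of all 37 members, with 9 peaks in 34.4 kb or 2.62 per 10000 bases. ITGB4 was close to it, with 9 peaks in 36.4 kb or 2.48 per 10000 bases. All 9 rows of ITGA3 were annotated as promoter. In ITGA6, 12 peaks lay inside the gene and 5 of them exceeded 1000 bases. The longest, 1773 bases at 172461586 to 172463358, lay 34250 bases past the outermost start. The list tied that peak and 8 others inside ITGA6 to the transcripts of other genes, so a count by nearest transcript alone gave ITGA6 only 3 peaks.

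The matrix-binding integrins include the subunits that take part in most receptors. ITGB1 encodes beta1, the partner of the greatest number of alpha subunits (ENSG00000150093, chromosome 10, 32900318 to 32958230, minus strand), and had a start peak of 1535 bases from 32957405 to 32958939. ITGAV, the alphaV subunit of vitronectin and fibronectin receptors, had 1764 bases from 186589484 to 186591247 on chromosome 2. ITGB8, a partner of alphaV, had the longest of the group, 2219 bases from 20329674 to 20331892 on chromosome 7. ITGA2, the alpha subunit of a collagen receptor, had 1681 bases from 52988644 to 52990324 on chromosome 5.

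The other matrix-binding genes with a start peak ranged from 1457 bases at ITGA9 down to 362 at ITGA10. ITGA1, an alpha subunit for collagen, had 1221 bases, at a start that also lies within the gene PELO. ITGA5, the alpha subunit of the main fibronectin receptor, had 918 bases, and ITGB3, a partner of alphaV and of the platelet subunit alphaIIb, had 763. ITGA8 had 2 peaks in the window, 611 bases that began 807 bases inside the gene and 339 bases that ended 111 bases before the start. ITGA4 had 436 bases that began 262 bases inside.

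At 23 of the 37 members the longest peak in the gene was not the start peak, a count that includes the 8 without one. ITGB5 is among the 23. This partner of alphaV (ENSG00000082781, chromosome 3, 124761948 to 124901418, minus strand) had 655 bases at its outermost start, from 124901250 to 124901904. Its longest peak, 1987 bases from 124885894 to 124887880, lay 13538 bases further in. RefSeq places 2 more starts of ITGB5 there, at 13734 and 14053 bases from the outermost one.

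ITGA11 and ITGA2B had no start peak. ITGA11 encodes a collagen receptor subunit known from fibroblasts (ENSG00000137809, chromosome 15, 68296532 to 68432163, minus strand). Its nearest peak lay 40925 bases from the start, inside the gene, and ran over 1512 bases from 68389727 to 68391238 in intron 2. In all, 13 peaks lay in ITGA11, 4 of them in intron 2. ITGA2B, the platelet subunit alphaIIb (ENSG00000005961, chromosome 17, 44372181 to 44389649, minus strand), held 2 peaks in its body. The nearer, 1023 bases long, began 3677 bases from the outermost start and covered another annotated start.

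The 250 bases before ITGB8 and ITGA11 are shown as the matrix-binding pair with the longest start peak and with the longest gene lacking one. The ITGB8 stretch lies before a start 1134 bases inside the outermost boundary, under the peak (chr7:20330650-20330899, plus strand). The ITGA11 stretch lies at chr15:68432164-68432413 on the minus strand.
ITGB8: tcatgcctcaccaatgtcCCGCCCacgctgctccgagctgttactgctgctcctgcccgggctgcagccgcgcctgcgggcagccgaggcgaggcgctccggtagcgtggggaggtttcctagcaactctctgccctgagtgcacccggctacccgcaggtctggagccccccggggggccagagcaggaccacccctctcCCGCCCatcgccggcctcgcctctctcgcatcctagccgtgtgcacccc
ITGA11: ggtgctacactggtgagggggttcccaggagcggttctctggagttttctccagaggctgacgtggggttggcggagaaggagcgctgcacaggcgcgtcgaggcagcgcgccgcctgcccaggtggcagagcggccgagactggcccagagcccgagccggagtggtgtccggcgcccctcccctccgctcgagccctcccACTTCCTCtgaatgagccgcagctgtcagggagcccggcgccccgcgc
The 2 stretches match in base composition, with 71.2% G and C in each, and hold 21 and 23 CpG pairs. The capitals are 2 SP and KLF strings in ITGB8 and 1 PU.1 string on the reverse strand in ITGA11. A CpG-rich stretch was thus found without a peak at ITGA11.

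In their bodies the matrix-binding genes ranged from 2 to 54 peaks. ITGA9, the alpha subunit of a tenascin and VCAM1 receptor, held 54 peaks over 371.4 kb, the highest count of all members. Per length that was 1.45 per 10000 bases. Of these peaks, 33 were tied by the list to other transcripts, and 13 lay in intron 15 of a transcript with 15 introns. ITGA2 held 13 peaks, 12 of which were tied to other genes. ITGAV and ITGB1 had long start peaks but few others, with 4 body peaks each, or 0.440 and 0.691 per 10000 bases. ITGA4 had the lowest count in relation to length among integrins, 2 peaks in 81.7 kb or 0.245 per 10000 bases.

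**Figure D3:**
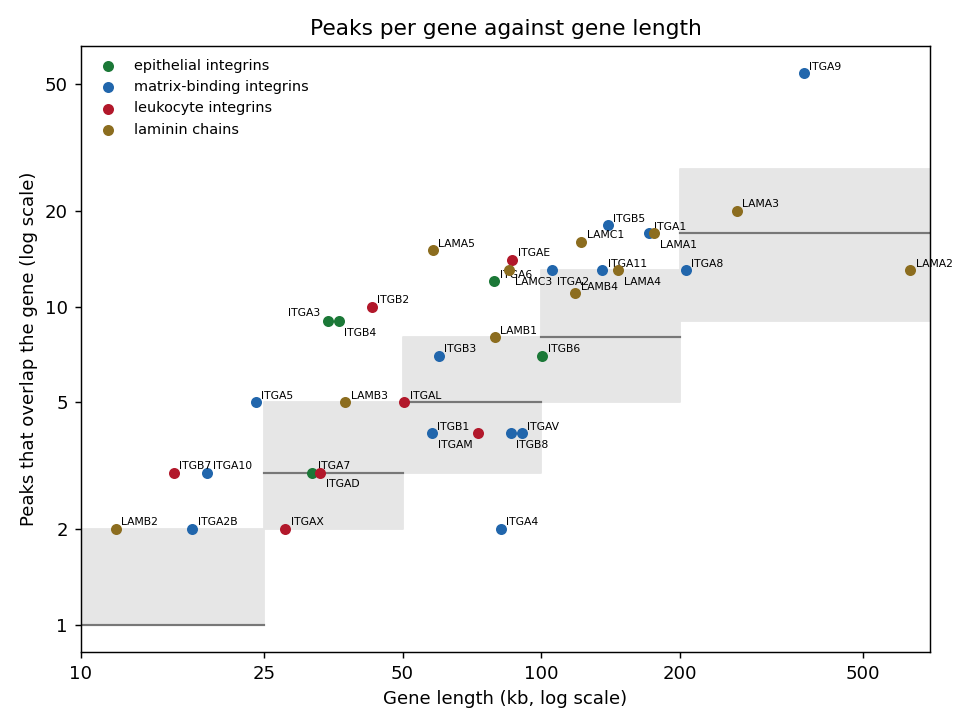
Number of peaks that overlap each gene (vertical axis, log scale) against gene length in kb (horizontal axis, log scale), 1 point per gene coloured by group. Grey lines and shaded bands give the median and quartiles of all protein-coding genes in 5 length ranges; ITGA9, with 54 peaks, and LAMA5, ITGA3, ITGB4 and ITGB2 lie above the band of their length range, and ITGA4 lies below.

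Peak counts followed gene length. Across the 37 genes Spearman's rho between length and body peaks was 0.787, a description over genes that share the same libraries. Set beside all protein-coding genes of the same range of length (under 25, 25 to 50, 50 to 100, 100 to 200 or over 200 kb), 25 members lay above the median of their range, 9 below and 3 on it. Above the upper quartile lay 15 of 37. Counts tie, so these cuts do not split all genes evenly. Of all genes under 25 kb, 62.3% lay at or below the median. The share was 56.7% at 25 to 50 kb and 56.3% at 50 to 100 kb. At or below the upper quartile lay 82.1%, 81.8%, 80.0% and 75.5% in the ranges up to 200 kb, shortest first. The share over all ranges was not computed, so the 25 and 15 are not read as a result. ITGB2, with 10 peaks, exceeded 98.3% of genes of 25 to 50 kb, and ITGA5, with 5, exceeded 97.1% of those under 25 kb. At 24.0 kb ITGA5 lies at the upper end of its range, so its length also bears on that percentage. ITGB2, at 42.9 kb, also lies in the upper part of its range. ITGA4 exceeded 11.1% of genes of 50 to 100 kb. DNA copy number, which is uneven in this aneuploid line and was not measured, can bear on every such count, and its part was not tested.

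Leukocyte integrins were divided. ITGB2 encodes beta2, the common partner of the alpha subunits ITGAL, ITGAM, ITGAX and ITGAD (ENSG00000160255, chromosome 21, 44885953 to 44928815, minus strand). It had a start peak of 1895 bases from 44927359 to 44929253 and 10 peaks in its body, or 2.33 per 10000 bases. Of the alpha partners, ITGAX had 1124 bases over its start, from 31354388 to 31355511 on chromosome 16. ITGAM had 337 bases that ended 42 bases before the start. ITGAL and ITGAD had no start peak. ITGB7, which pairs with ITGA4 and ITGAE on lymphocytes, had 771 bases that began 800 bases inside the gene. ITGB7 was without a start peak under the window of 500 bases.

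The 3 leukocyte genes without a start peak still held peaks. ITGAE, the alphaE subunit of lymphocytes within epithelia (ENSG00000083457, chromosome 17, 3714628 to 3801188, minus strand), lies at 86.6 kb in the upper part of the range of 50 to 100 kb. It held 14 peaks in its body, more than 96.1% of genes of that range. The longest, 1447 bases from 3723289 to 3724735, covered another annotated start 77351 bases into the gene. The nearest peak to its outermost start lay 1171 bases upstream, and the list ties it to another gene. ITGAL, the alphaL subunit of LFA-1 (ENSG00000005844), had 5 peaks, the first of them 9721 bases in. The list ties 3 of the 5, including that first one, to other genes. ITGAD (ENSG00000156886) had 3 peaks, 2 of them tied to another gene. The nearest to its start, 339 bases from 31397671 to 31398009, was tied to ITGAD and lay in exon 5.

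The leukocyte pair of stretches is ITGB7 and ITGAE, as ITGB2 and ITGAX are not printed here. ITGB7 lies at chr12:53207252-53207501 and ITGAE at chr17:3801189-3801438, both on the minus strand, and no peak overlaps either stretch.
ITGB7: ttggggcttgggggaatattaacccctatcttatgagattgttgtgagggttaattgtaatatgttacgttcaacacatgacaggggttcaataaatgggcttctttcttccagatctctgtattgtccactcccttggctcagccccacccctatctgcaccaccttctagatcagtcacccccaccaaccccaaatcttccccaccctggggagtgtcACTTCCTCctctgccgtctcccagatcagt
ITGAE: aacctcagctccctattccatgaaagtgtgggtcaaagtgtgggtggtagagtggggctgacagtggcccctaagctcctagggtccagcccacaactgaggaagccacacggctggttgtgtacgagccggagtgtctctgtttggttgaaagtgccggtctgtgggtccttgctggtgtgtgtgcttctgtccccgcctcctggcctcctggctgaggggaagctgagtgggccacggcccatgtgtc
ITGB7 has 49.6% G and C and 2 CpG pairs, and ITGAE 60.0% and 6. The capitals in ITGB7 are a PU.1 string on the reverse strand.

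Of 5 leukocyte marker genes, PTPRC, CD3E, CD4 and CD79A had no peak at the outermost start and CD14 had one. PTPRC, like CDH1, had one at another annotated start. Of 5 epithelial markers, EPCAM, KRT8, KRT18 and KRT19 had one and CDH1 had none at its outermost start. VIM, ZEB1 and FN1, the 3 mesenchymal markers, all had one. KRT8 and KRT18 are both counted through 1 shared peak of 1436 bases. The start peaks at ITGB2 and ITGAX stood in a list in which 4 of 5 leukocyte markers had none at the outermost start and 3 of 5 had none at any annotated start. Of all protein-coding genes, 71.5% had a peak at the outermost start and 79.5% at any annotated start. The interval for 1 of 5 leukocyte markers, 0.505 to 71.6%, includes that 71.5%, so so few markers tell little.

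Among the gamma and beta chains, LAMC1 and LAMB2 had start peaks longer than 1500 bases. LAMC1, the gamma1 chain of most laminins (ENSG00000135862, chromosome 1, 183023420 to 183145592, plus strand), had the longest of all 37 members, 2297 bases from 183022066 to 183024362. LAMB2, the beta2 chain, had 1757 bases from 49132246 to 49134002 on chromosome 3. LAMB1, the beta1 chain, had 1208 bases from 108002207 to 108003414 on chromosome 7, just under the median of the members. LAMB3, the beta chain of laminin-332 in epithelial basement membranes (ENSG00000196878, chromosome 1, 209614870 to 209652425, minus strand), had 2 peaks near its start. The longer, 1031 bases from 209652472 to 209653502, ended 47 bases before the start, and the other, 753 bases from 209651031 to 209651783, covered another RefSeq start 1051 bases into the gene. LAMC3, the gamma3 chain, had only 264 bases, 115 bases before the start, but 13 peaks in its body. These exceeded 93.8% of genes of 50 to 100 kb, a range in whose upper part LAMC3 lies at 85.3 kb.

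Among alpha chains, LAMA3 had a start peak of 1716 bases, from 23689029 to 23690744 on chromosome 18, at its outermost start. LAMA3 is known for a long form that begins there and a short form that begins inside the gene and joins laminin-332 in epithelia. RefSeq places that inner start 183567 bases from the outer one. No peak covered it. The nearest, 656 bases from 23871286 to 23871941, ended 1079 bases before it, and at -899 bases from the start that the list itself places 183387 bases in. LAMA1 had 1254 bases that began 554 bases inside the gene, and LAMA4, an alpha chain of vessels and mesenchymal tissue, 1214 bases that began 340 bases inside.

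LAMA5, the alpha5 chain of most adult epithelial basement membranes (ENSG00000130702, chromosome 20, 62309065 to 62367312, minus strand), had only 301 bases over its outermost start. A peak of 2420 bases, from 62368709 to 62371128, ended upstream, at -1397 bases from the start, and is the longest row tied to any member. Inside LAMA5 lay 15 peaks, 6 of them over 1000 bases, and they covered 22.4% of the gene, the highest share of the 37. The median member had 7.07% of its length in peaks. The list ties 4 of the 15 to other genes.

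LAMA2 and LAMB4 had no start peak. LAMA2, the alpha2 chain of muscle and nerve (ENSG00000196569, chromosome 6, 128883138 to 129516566, plus strand), is the longest member at 633.4 kb and had the lowest density, 13 peaks or 0.205 per 10000 bases. The first peak inside LAMA2 lay 167085 bases from the start, and 4 of the 13 lay in the last 30 kb. Among these was its longest, 1471 bases from 129490313 to 129491783, over another annotated start of LAMA2. LAMB4, a beta chain next to LAMB1 (ENSG00000091128, chromosome 7, 108011662 to 108130361, minus strand), held 11 peaks, the first of them 15840 bases in. Its nearest peak lay upstream, at 15667 bases.

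For laminins the stretches are those of LAMC1 (chr1:183023170-183023419, plus strand), LAMA2 (chr6:128882888-128883137, plus strand) and the inner start of LAMA3 (chr18:23872770-23873019, plus strand). The last was added after its values were seen, because RefSeq and the list place the inner start differently.
LAMC1: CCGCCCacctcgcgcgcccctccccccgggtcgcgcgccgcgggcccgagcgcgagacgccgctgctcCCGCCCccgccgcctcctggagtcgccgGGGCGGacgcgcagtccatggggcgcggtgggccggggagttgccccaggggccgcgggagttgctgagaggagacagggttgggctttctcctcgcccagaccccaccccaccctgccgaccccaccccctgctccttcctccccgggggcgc
LAMA2: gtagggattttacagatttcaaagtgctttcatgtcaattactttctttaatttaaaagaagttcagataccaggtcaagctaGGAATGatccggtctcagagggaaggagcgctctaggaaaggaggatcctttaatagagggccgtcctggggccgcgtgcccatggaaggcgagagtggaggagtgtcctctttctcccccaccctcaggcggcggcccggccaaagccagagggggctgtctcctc
LAMA3 inner start: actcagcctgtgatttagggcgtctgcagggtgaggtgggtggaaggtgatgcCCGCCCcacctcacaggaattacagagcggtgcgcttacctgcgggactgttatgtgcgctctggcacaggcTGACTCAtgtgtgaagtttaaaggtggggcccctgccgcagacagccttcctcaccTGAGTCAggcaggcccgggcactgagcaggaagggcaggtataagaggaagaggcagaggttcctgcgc
LAMC1 has 79.6% G and C, 32 CpG pairs and 3 SP and KLF strings under its peak. LAMA2 has 53.2%, 9 CpG pairs and 1 TEAD string. The inner LAMA3 stretch has 60.4%, 9 CpG pairs, 1 SP and KLF string and 2 AP-1 strings, the only member window with more than 1 AP-1 match.

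The reference table, from RefSeq on GRCh38.p14, held 33 windows of 300 bases (250 before to 50 after a start) for 26 of the 37 members. A peak overlapped 22 of the 33 windows (66.7%), against 54.8% of all 34961 windows in the table. The table covers 27195 genes, more than the 19974 protein-coding ones, so its shares are not over protein-coding genes alone. Member windows under a peak had a median of 65.5% G and C and 21 CpG pairs, and those without 51.7% and 4. Over all windows the values were 64.7% and 25 with a peak and 48.3% and 4 without. ITGA11 and ITGA4 were CpG-rich without a peak over the window, with 29 and 31 CpG pairs, and ITGA10 and ITGAM had a peak with 2 CpG pairs each. The cases of ITGA11 and ITGA4 differ. The ITGA4 window ends at 181457435 and its start peak begins just past it, at 181457467, whereas the nearest peak to ITGA11 lay 40925 bases from the start.

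The SP and KLF string GGGCGG was present in 18 of the 22 member windows under a peak and in 1 of the 11 without. Of the 18, ITGB5 and LAMB3 gave 3 windows each and ITGA6 gave 2, some of which overlap, so windows are not separate genes. Over all windows the shares were 65.2% and 20.6%. AP-1 strings were in 3 of 33 member windows, those of ITGA5, LAMA3 and LAMB3 (9.09%, against 4.92% of all windows). PU.1 strings were also in 3, at ITGA11, ITGAV and ITGB7 (9.09% against 2.59%). TEAD strings were in 4 (12.1% against 14.0%), and ETS strings in 3 (9.09% against 10.3%). RUNX strings were in 3 (9.09% against 13.1%) and TATA strings in 2 (6.06% against 11.5%). A match describes letters in a window and says nothing of whether a factor binds there.

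Of the 328 rows tied to members, 133 were annotated as promoter (40.5%, 95% Wilson interval 35.4 to 45.9), within 3000 bases of a transcript start. Over rows tied to protein-coding genes the share was 38.7%, inside that interval, and over the whole list 30.4%. Introns held 125 (38.1%), against 36.4% for protein-coding genes. Distal intergenic rows were 30 (9.15%, interval 6.48 to 12.8), against 17.7%. Exons held 29 (8.84%, interval 6.23 to 12.4), against 3.07%, and 17 of the 29 were tied to laminin genes. Of these 17, the 2 tied to LAMB2 lie upstream of that gene, in exons of another transcript. LAMA1 and LAMB4 had 4 exon rows each. Peaks are not replicates, and these intervals cover counting only.

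**Figure D4:**
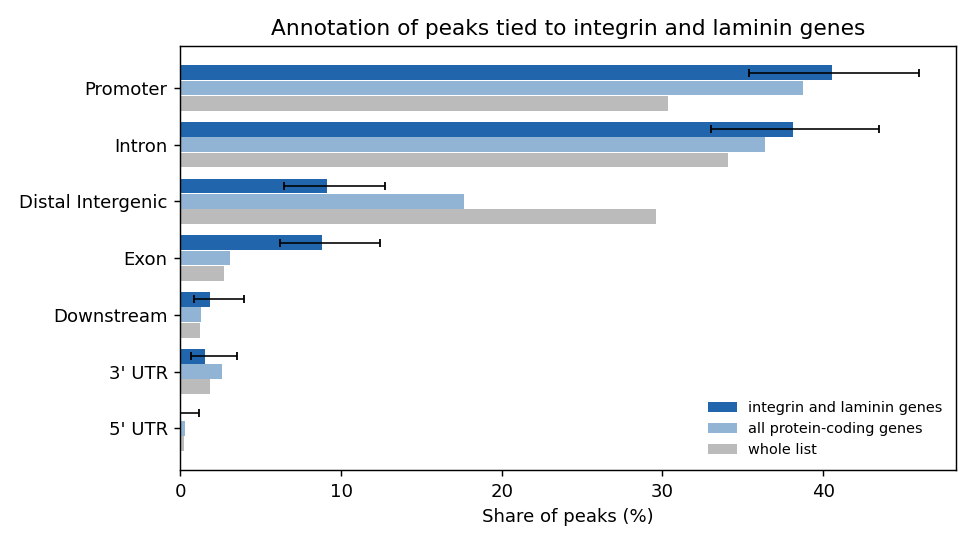
Share of peaks in percent (horizontal axis) in each annotation class, for rows tied to the 37 genes (dark bars, with 95% Wilson intervals over peaks), rows tied to all protein-coding genes (light bars) and the whole list (grey bars). The exon share of 8.84% lies above the 3.07% of protein-coding genes, and the distal intergenic share of 9.15% below their 17.7%.

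The rows tied to a gene and the peaks inside it were different sets. Of 373 overlaps of peaks with members' bodies, 121 (32.4%) were tied by the list to another gene's transcript, and 76 rows tied to members lay outside them. The share tied elsewhere was 42.1% for matrix-binding integrins, 28.6% for laminins, 22.5% for epithelial and 17.1% for leukocyte integrins. Single genes weigh heavily in these shares. All 9 such overlaps of epithelial integrins were in ITGA6, and 33 of the 67 of matrix-binding integrins were in ITGA9. The same share over all protein-coding genes was not computed, so these shares are not read as traits of the groups. Beyond the start window lay 346 of the 373. Members with a start peak had a median of 1.23 body peaks per 10000 bases (0.245 to 2.62, 29 genes, start peaks included), and members without one 0.943 (0.205 to 1.62, 8 genes). The range of the second group lay mostly inside that of the first.

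Of the 8 members without a peak at the outermost start, 6 had one within 1000 bases of another annotated start: ITGA2B, ITGA11, ITGAE, ITGAL, LAMA2 and LAMB4. By this measure 35 of 37 members had a start peak (94.6%), against 79.5% of all protein-coding genes. Genes with many annotated transcripts have more places for such a peak, so the 2 shares are not on equal terms. ITGB6 and ITGAD had none under either definition.

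Start peaks were also counted at genes that work with these receptors, against the same 71.5% of all protein-coding genes. That share lies inside the intervals of both lists, so neither stands apart from the background. Of 21 adaptors and linkers that tie integrins to the cytoskeleton, 19 had a start peak (90.5%, interval 69.6 to 98.8). The longest were at TLN2, a talin that binds beta subunits (2709 bases), and PTK2, the focal adhesion kinase (2253 bases). The exceptions were PARVB and PARVG, neighbouring parvin genes on chromosome 22. Of 9 matrix partners, 6 had one (66.7%, interval 29.9 to 92.5), with AGRN, the proteoglycan agrin (2888 bases), and HSPG2, perlecan (2053 bases), leading. SPP1, the integrin ligand osteopontin, and the nidogens NID1 and NID2, which bind laminin, had no start peak. Their nearest peaks lay 1719, 1680 and 7261 bases from the start, so the first 2 absences depend on the window. With 3000 bases, 8 of the 9 matrix partners had a start peak (88.9%), against 80.0% of all protein-coding genes.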

How the data were processed

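ATAC-seq libraries of 5 control and 5 ARID1A knockout samples were made from MDA-MB-231 cells. Per the submitters' processing notes, the authors used Bowtie2 2.3.5.1 and MACS2 2.2.6 on hg38. Which peak threshold, duplicate handling, Tn5 shift, library merging and gene annotation were used is not given in the sources used here. Each of those choices sets the number and edges of peaks. The deposited list gives, per the file headers, 17 columns. They include positions, lengths and distances in bases and the annotated gene and transcript of each peak, with no count or score per library.

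RefSeq gene boundaries came from a table of GRCh38.p14, with 19974 protein-coding genes on chromosomes 1 to 22 and X. Ensembl identifiers were paired with symbols by position where the overlap was at least 0.5 of the union (34 members), and otherwise as the gene that most peaks inside the RefSeq gene name among their flanking genes (3 members: ITGAL, ITGAX and LAMA2). Strand came from the RefSeq promoter table or the list. Where both could be compared (11639 genes), 11580 (99.5%) had 1 strand in both. The weaker flank pairing, which also sets the strand of ITGAL and ITGAX, matched the RefSeq strand at 1343 of 1672 genes where that could be checked. The start state was determined for 19801 genes.

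Shares of genes carry exact and shares of peaks Wilson 95% intervals. No test was run. The planned comparison of knockout with control needs values per library and was not made. On simulated data, the interval search gave the brute-force count for 1000 of 1000 intervals. The members, groups, lists and rules were chosen with earlier results of these data known. For each group, the 3 longest start peaks and all members without one were named with their values. Sequences are those of the member with the longest start peak and the longest gene without one, among members in the promoter table. Alternatives were other start windows, any annotated start, longer peaks only and gene overlap. Computation used Python 3.11.15, numpy 2.4.6, pandas 2.3.3, scipy 1.17.1 and matplotlib 3.10.9.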

Additional observations from a re-analysis of the deposited data

How the results depend on the processing

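No paired analysis was possible because no column holds the values of a single library. No library could be left out either, and the tests planned for counts were not run. Of 33 alternative values, 25 stayed within the interval, or within 1.5 times, of the value reported. Of the 22 on shares with a start peak, 19 did so. The intervals of the groups are wide, 18.4 to 90.1 for leukocyte and 28.4 to 99.5 for epithelial integrins. Staying within them was likely for almost any value, so these counts do not show that the shares are stable. Accepting any annotated start raised the share to 94.6% for all members and to 100% for both matrix-binding integrins and laminins, since more starts are then counted. With 3000 bases the members' share was 81.1%, against 80.0% of all protein-coding genes. It was 73.0% against 67.9% with 500 bases, and 64.9% against 66.0% with peaks of at least 539 bases. These shares are near the background, and the side of it on which they fall is not read as a result. Leukocyte integrins ranged from 42.9% to 85.7% and had the lowest share of the 4 groups except at any annotated start; with ITGA4 and ITGA2B moved to them their share was 55.6%, and that of the matrix-binding group 91.7%. Replacing rows by peaks of at least 539 bases inside the gene changed the median from 9 to 5 for all members and for epithelial integrins. It went from 7 to 4.5 for matrix-binding integrins, from 4 to 2 for leukocyte integrins and from 9 to 7 for laminins. With peaks of any length inside the gene the medians were 9, 9, 6, 4 and 13 in the same order. A cut at the median length of the list lowers such counts by its definition. The promoter share of member rows, 40.5% as reported, was 25.6% within 1000 bases of a start, where that of protein-coding genes was 27.2%. Depth is unknown, so a gene without a peak is not shown to be closed.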

Other observations

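Of 3 runs of neighbouring members, the genes differed in start state in 2 and shared it in 1. The leukocyte genes ITGAM, ITGAX and ITGAD form a run on chromosome 16 (31259975 to 31426505) with 14 peaks in 167 kb, or 0.841 per 10000 bases. ITGAX had a peak of 1124 bases over its start, ITGAM 337 bases beside it and ITGAD none. The laminin genes LAMB1 and LAMB4 are neighbours on chromosome 7 (107923799 to 108130361) with 19 peaks in 207 kb. LAMB1 had a peak over its start, while LAMB4 had none within 15667 bases. The collagen receptor genes ITGA1 and ITGA2 adjoin on chromosome 5 (52787916 to 53094779) with 32 peaks in 307 kb, and both had a peak over the start. These values are a description of the list, and no explanation of them was tested.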
